A study of Mus musculus with 12 samples.

Results

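Chemokines, interleukins, the tumor necrosis factor (TNF) family and the receptors of all of these were examined in the nucleus accumbens (NAC) of postpartum and virgin mice. A gene was a member when the array annotation gave its probeset a single symbol that starts with Ccl, Ccr, Cxcl, Cxcr or Il and a number, or with Tnfsf or Tnfrsf, or that reads Tnf, Csf1, Csf2 or Csf3. The rule used no measured value and found 159 members with 163 probesets, of 22180 genes named by a single symbol and 41345 probesets in all. Where a member had several probesets, the brightest over all arrays stood for it. A further 36 probesets that carry a matching symbol beside other gene names, among them copies of Ccl19 and Ccl21, were left out.

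The 6 postpartum mice were lactating outbred hsd:ICR females collected on postpartum day 7 with litters standardized to 11 pups. The 6 virgin mice were age-matched hsd:ICR females in diestrus that had been housed with other females in place of a male, and mice of both groups lived singly afterwards. Brains of both groups were collected on the same days. Punches of the frozen NAC held core and shell, and every mouse had a GeneChip Mouse Gene 2.0 ST array to itself. The postpartum group carries pregnancy, parturition, lactation and care of pups together, which cannot be told apart in this design.

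Chemokines are small secreted proteins that draw cells along a gradient through G protein-coupled receptors, and they are grouped as CC or CXC by the spacing of their first cysteines. Many interleukins, and Csf2, act on receptors made of a binding chain and a shared signaling chain, while Csf1 acts on a receptor tyrosine kinase and most TNF ligands are trimers that cluster their receptors and start NF-kB signaling or cell death. In the healthy brain a few of these genes are used by neurons, glia and vessels, such as Cxcl12 and its receptor Cxcr4, the interleukin-1 accessory protein genes Il1rap and Il1rapl1, which also act at synapses, and the microglial survival factors Il34 and Csf1. Many of the rest are known mainly from immune cells.

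Values are PLIER intensities, a normalized brightness on a linear scale, given as the lowest, median and highest of 6 arrays or as mean ± SD (n = 6 each). A fold change is the log2 difference, postpartum minus virgin, with the standard error (SE) of the limma fit across all probesets, and p values are limma's unless they are called exact. The study's own threshold, an unadjusted p under 0.01, and its second one, p under 0.03, were used beside an adjusted p under 0.05 (Benjamini and Hochberg over all probesets). The paper does not state the scale of its fit. Its count of probesets past p under 0.01 was nearer to the 1262 of linear intensities than to the 951 of the log2 values used here. The 12 arrays had median intensities of 153 to 165, and pairs of arrays had Spearman correlations of 0.976 to 0.990 across probesets. The 8 measured markers of striatal projection neurons had a summed intensity of 20160 to 26400 in postpartum and 24000 to 28290 in virgin NAC. All 8 had negative fold changes, and Rgs9 passed p under 0.01 (-0.26, SE 0.083). Penk (-0.23, SE 0.081) and Drd1 (-0.34, SE 0.12) passed p under 0.03. On linear intensities Penk passed p under 0.01, the threshold at which the paper lists it. In punched tissue fewer cells of a type and less RNA per cell cannot be told apart, and this holds for every value here.

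Il1rap and Tnfrsf12a rose in postpartum NAC, and Ccl28, Csf2 and Tnfrsf17 fell, by p under 0.01. These were 5 of 159 members (3.14%), beside 2.3% of all probesets. Of the 22180 genes named by a single symbol, 2.8% passed p under 0.01 (382 higher and 239 lower). At p under 0.03 these genes were at 6.56%, and at p under 0.05 at 9.91%. Of the members 2 were higher, where 1.24% of all probesets were, and 3 were lower, where 1.06% were. No member reached an adjusted p under 0.05, for which the lowest was 0.271 (Il1rap), and 0% of all probesets reached it (0 by limma on log2 values and 10 on linear intensities, none of them a member). At p under 0.03 the count was 13 members (8.18%, beside 5.73% of all probesets), with 2 higher (2.83% of all probesets) and 11 lower (2.9% of all probesets). At p under 0.05 it was 20 members (12.6%, beside 8.91%), 3 higher (beside 4.19%) and 17 lower (beside 4.72%). The groups did not overlap for 2 members, Il1rap and Tnfrsf12a, and for 0.803% of all probesets.

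The changes were small. The fold change of 152 members was within 0.25 on the log2 scale in either direction, and all 159 lay between -0.48 (Cxcl3) and 0.23 (Il1rap). A negative fold change was found for 104 members (65.4%) and for 54.3% of all probesets, with medians of -0.044 over members and -0.012 over all probesets. Of the genes named by a single symbol 52.1% had a negative fold change, with a median of -0.005. The 95% interval of a member's fold change reached a median of 0.19 to either side of it, so that differences of under about 14% were mostly not resolved.

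**Figure D1:**
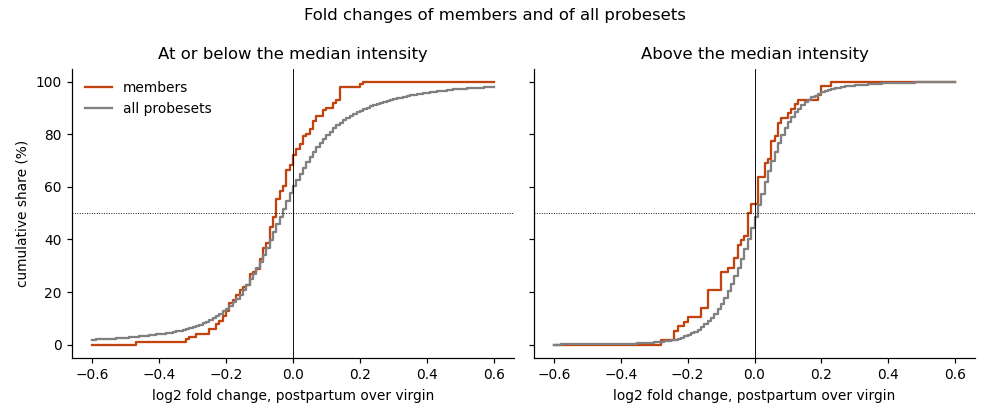
Cumulative share (%) of the 159 members (orange) and of all probesets (grey) against log2 fold change, postpartum over virgin. The left panel holds probesets at or below the median intensity of the array, where 72.3% of 101 members and 60.1% of all probesets had a negative fold change, and the right panel those above it, where 53.4% of 58 members and 48.5% of all probesets did.

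Counted by sign alone, the surplus of negative values lay mostly among dim members. Of the 101 members at or below the median intensity of all probesets (156), none was higher and 2 were lower at p under 0.01 (1.98%). Of the 20673 probesets as dim, 104 were higher and 221 lower (1.57%). The median fold change was -0.059 over these members and -0.036 over the probesets as dim. Of the 58 brighter members, 2 were higher and 1 was lower (5.17%), with a median of -0.018. Of the 20672 brighter probesets, 407 were higher and 219 lower (3.03%), with a median of 0.003. For larger decreases the surplus lay among the brighter members. A fold change of -0.1 or lower was found for 27.6% of them, beside 15.6% of the brighter probesets. Among dim members it was 32.7%, beside 31.6% of the probesets as dim. The split also moved with the scaling of the arrays. With arrays centred on their own medians, 76 members were positive and 83 negative with a median of -0.010, and at p under 0.03 the members were 4 higher and 5 lower.

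How much of a dim value is signal from the gene was not measured. As a yardstick chosen after the values were seen, 1400 probesets of odorant and vomeronasal receptors, genes used mainly in the nose, had a median intensity of 35.3 and a 95th percentile of 158. Their own median fold change was -0.050, close to the -0.044 of the members, and 2 of them were higher and 17 lower at p under 0.01. The members were brighter than these probesets, with a median intensity of 125. Of the 159 members 155 had a mean above the median of 35.3, and 56 had a mean above 158. The other 103 members were at or below 158. Of the 11 members that were lower at p under 0.03, 8 were among these 103, and Ccl28, Il1rn and Cxcl2 were above. All 10 ligands of the TNF superfamily were at or below this level, as were 13 of 16 chemokine receptors and 29 of 41 interleukins and antagonists, while 16 of 36 interleukin receptors and 10 of 20 TNF receptors were above it. Brightness depends on each probeset's probes, so these counts describe the array signal and do not rank the genes by RNA.

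**Figure D2:**
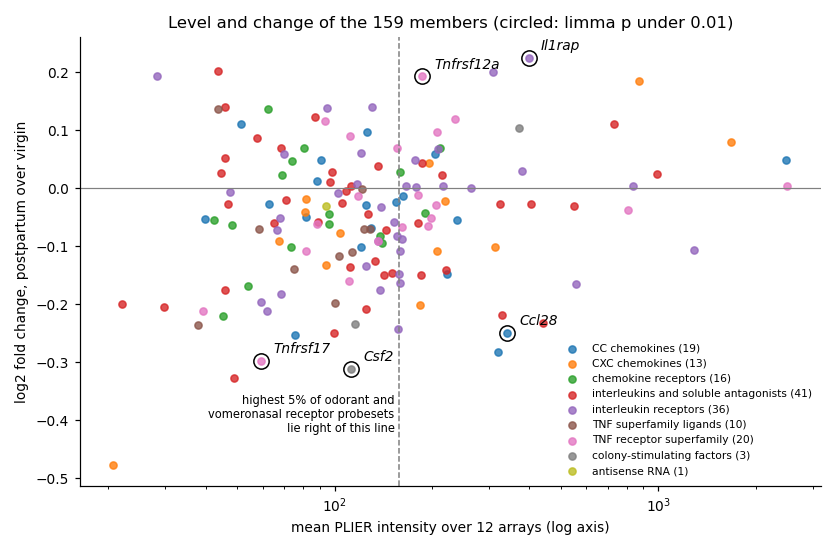
Log2 fold change, postpartum over virgin, against the mean PLIER intensity over 12 arrays (log axis), 1 point per member in the color of its class. The circled members passed p under 0.01, and of these Il1rap, Tnfrsf12a and Ccl28 lie right of the dashed line at 158, the 95th percentile of odorant and vomeronasal receptor probesets, and Csf2 and Tnfrsf17 left of it.

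Among interleukin receptors, Il1rap gave the smallest p of all members. It encodes the accessory protein that interleukin-1, interleukin-33 and interleukin-36 receptors need for signaling, and in neurons it takes part in synapse formation. Its intensity was 409, 424 and 458 (lowest, median, highest) in postpartum NAC, against 354, 366 and 385 in virgin NAC. Every postpartum array was above every virgin array, by at least 24 units of intensity. Il1rap averaged 431 ± 24.1 in postpartum and 368 ± 11.5 in virgin mice, a fold change of 0.23 (SE 0.046, limma p = 0.000417, adjusted p = 0.271, exact permutation p = 0.00216, the smallest that 6 against 6 arrays allow). It passed p under 0.01 with each array left out in turn. A dimmer probeset of Il1rap (mean 186) had a fold change of 0.00 (SE 0.10, exact permutation p = 0.991) and the dimmest (mean 26.5) of 0.25 (SE 0.22, exact permutation p = 0.335). The mean of all 3 gave 0.16 and did not pass either threshold. What parts of the gene the 3 probesets read is not given in the sources used here.

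Tnfrsf12a encodes Fn14, the receptor of the ligand TWEAK. Its intensity was 185, 194 and 220 in postpartum NAC, against 167, 174 and 185 in virgin NAC. The groups did not overlap, but the lowest postpartum array lay only 0.06 units above the highest virgin array. Tnfrsf12a averaged 200 ± 14.9 in postpartum and 174 ± 5.7 in virgin mice, with a fold change of 0.19 (SE 0.053, limma p = 0.00365, adjusted p = 0.367, exact permutation p = 0.00216). This call too held with each array left out in turn.

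Ccl28, an epithelial CC chemokine that binds Ccr10 and Ccr3, was the brightest of the members that fell. Its intensity was 276, 322 and 342 in postpartum NAC, against 327, 376 and 406 in virgin NAC. Of the postpartum arrays 4 were below all virgin arrays, and the other two overlapped the virgin array of lowest value, replicate 3. Ccl28 averaged 314 ± 28.7 in postpartum and 373 ± 28.6 in virgin mice, and the fold change was -0.25 (SE 0.073, limma p = 0.00519, adjusted p = 0.389, exact permutation p = 0.00649). With 1 array left out the fold change lay between -0.285 and -0.212, and p under 0.01 was lost without postpartum replicate 1 or 2 or virgin replicate 1, 4 or 5.

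The promoters of these 3 genes are shown because they are the members past p under 0.01 with a mean intensity above 158. This is the 95th percentile of the odorant and vomeronasal receptor probesets. Csf2 and Tnfrsf17, which also passed p under 0.01, were below it and are not shown. Each run is the 250 bases before a transcription start listed in RefSeq (GRCm38.p6). For Il1rap this start lies inside the annotated span of the gene, which begins at chr16:26581509. Most of the Il1rap window, and most of its matches, therefore lie within that span. The 3 windows are chr16:26581455-26581704 on the plus strand for Il1rap, chr17:23677450-23677699 on the minus strand for Tnfrsf12a and chr13:119623569-119623818 on the plus strand for Ccl28. Capitals mark every match, on either strand, to the GC box (GGGCGG), the CCAAT box, the TATA box (TATAAA), the AP-1 motif (TGANTCA), the cAMP response element (TGACGTCA) and a consensus of the NF-kB site.
Il1rap: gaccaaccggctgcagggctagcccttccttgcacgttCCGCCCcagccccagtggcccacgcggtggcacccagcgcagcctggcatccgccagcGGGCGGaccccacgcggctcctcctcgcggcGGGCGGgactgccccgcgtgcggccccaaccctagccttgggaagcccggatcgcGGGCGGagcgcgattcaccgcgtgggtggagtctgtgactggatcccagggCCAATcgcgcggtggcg
Tnfrsf12a: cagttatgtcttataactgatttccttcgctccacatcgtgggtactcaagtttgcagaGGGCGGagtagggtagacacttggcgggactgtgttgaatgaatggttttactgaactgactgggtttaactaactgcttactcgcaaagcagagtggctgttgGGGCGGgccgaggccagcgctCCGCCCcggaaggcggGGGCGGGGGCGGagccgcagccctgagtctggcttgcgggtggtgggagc
Ccl28: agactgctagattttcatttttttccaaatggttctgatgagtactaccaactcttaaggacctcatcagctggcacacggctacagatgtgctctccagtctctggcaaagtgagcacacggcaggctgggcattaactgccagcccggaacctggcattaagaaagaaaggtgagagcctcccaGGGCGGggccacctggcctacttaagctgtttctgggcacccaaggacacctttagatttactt
The Il1rap window was the richest in G and C (74.4%) and held 4 GC boxes and 1 CCAAT box. The Tnfrsf12a window (58.8% G and C) held 5 GC boxes, of which the last pair adjoin, and the Ccl28 window (50.8%) held 1. None of the 3 held a match to the NF-kB consensus, AP-1, cAMP response or TATA motif. Among 32851 promoter windows of this length, 32.7% held a GC box, 33.8% a CCAAT box, 12.4% a TATA box, 6.75% an AP-1 motif, 1.55% a cAMP response element and 7.25% the NF-kB consensus. Of the 159 members 121 had a promoter in the table. These matches describe letters only, and no binding was measured.

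**Figure D3:**
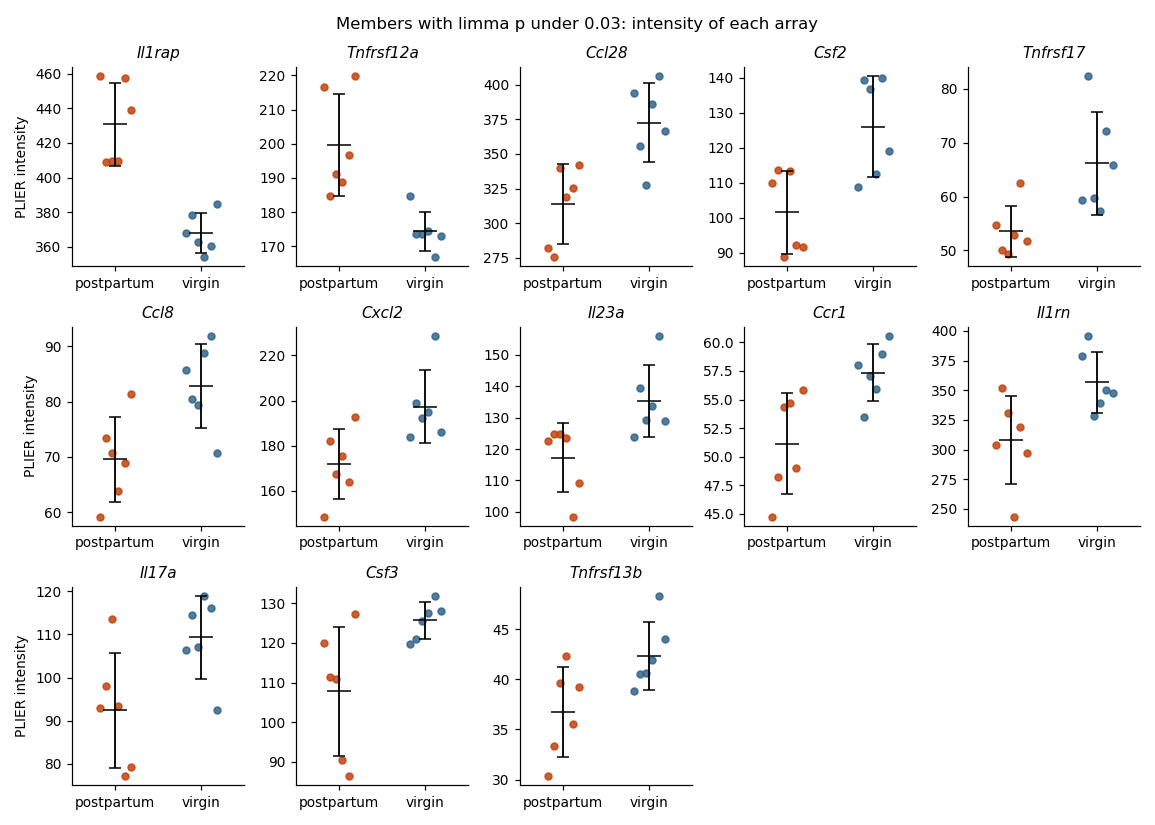
PLIER intensity of each array (points) with mean and SD (bars) for the 13 members with p under 0.03, postpartum left and virgin right, each panel with its own axis that does not start at 0. Il1rap and Tnfrsf12a are higher in all 6 postpartum arrays than in any virgin array, and the other 11 members are lower in postpartum on average with overlapping groups.

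Of 19 CC chemokines, Ccl28 alone passed p under 0.01 and none was higher at that threshold. Ccl8, a relative of Ccl2, had 59.2, 69.8 and 81.5 in postpartum NAC, against 70.7, 83.1 and 91.8 in virgin NAC. Its fold change was -0.25 (SE 0.084, exact permutation p = 0.0216), and 3 postpartum arrays were below all virgin arrays. Ccl17, a ligand of Ccr4, had the most negative fold change of the members above the median intensity, with 251, 283 and 350 in postpartum and 260, 379 and 416 in virgin NAC. The spread within both groups was wide, and its fold change of -0.28 (SE 0.13) gave exact permutation p = 0.0736. Ccl27a, a skin chemokine that shares Ccr10 with Ccl28, was the brightest CC probeset and averaged 2537 ± 335 in postpartum and 2448 ± 281 in virgin NAC, with an interval of the fold change from -0.18 to 0.28. Ccl2, the monocyte chemokine best known from inflamed brain, averaged 125 ± 15.0 in postpartum and 129 ± 28.0 in virgin NAC, and its interval ran from -0.34 to 0.28. The other 14 CC chemokines lay between -0.15 and 0.11, with no p under 0.207.

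Of 13 CXC chemokines none passed p under 0.01. Cxcl2, which draws neutrophils through Cxcr2, had 149, 172 and 193 in postpartum NAC, against 184, 194 and 228 in virgin NAC. Of the postpartum arrays 5 were below all virgin arrays, and its fold change was -0.20 (SE 0.072, exact permutation p = 0.0108). Cxcl12, made in brain by vessels, meninges and neurons, had 809, 911 and 1167 in postpartum and 726, 837 and 890 in virgin NAC. For Cxcl12 3 postpartum arrays were above all virgin arrays and the fold change was 0.18 (SE 0.095, exact permutation p = 0.0996). The bright Cxcl14, found in neurons, averaged 1739 ± 270 in postpartum and 1644 ± 235 in virgin NAC (fold change 0.08, exact permutation p = 0.53). Cxcl13, the B cell chemokine, averaged 307 ± 57.4 in postpartum and 329 ± 57.7 in virgin NAC (-0.10, exact permutation p = 0.496). The other 9 lay between -0.48 and 0.043 with no p under 0.102. Among these, Cxcl3 had the most negative fold change of all members but a mean of only 20.7 and an SE of 0.27.

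On chromosome 5 the neighbours Cxcl5, Cxcl3, Cxcl15, Cxcl1 and Cxcl2, all had negative fold changes, from -0.48 to -0.041, of which that of Cxcl2 passed p under 0.03. Cxcl9, Cxcl10 and Cxcl11, which neighbour each other elsewhere on this chromosome, had fold changes of -0.11, -0.019 and -0.13, and none passed it. The groups of neighbouring CC chemokines on chromosome 11 did not all point one way. Of the set Ccl2, Ccl7, Ccl11, Ccl12, Ccl8 and Ccl1, 2 were positive and 4 negative, and of Ccl5, Ccl9, Ccl6, Ccl3 and Ccl4, 3 were positive and 2 negative. Ccl8 was the only one of these 11 past p under 0.03.

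No chemokine receptor of 16 passed p under 0.01. Ccr1, the receptor of several monocyte chemokines, had 44.7, 51.7 and 55.9 in postpartum NAC, against 53.4, 57.6 and 60.6 in virgin NAC. Its fold change was -0.17 (SE 0.062, exact permutation p = 0.0152), on a probeset whose mean of 54 is well below the yardstick of 158. Cxcr4, the receptor of Cxcl12, averaged 162 ± 13.9 in postpartum and 158 ± 9.33 in virgin NAC, with an interval of the fold change from -0.12 to 0.17. Cxcr3 and Ccr7, receptors of T cells and dendritic cells, had fold changes of -0.04 (exact permutation p = 0.561) and 0.07 (exact permutation p = 0.459). The 12 others lay between -0.22 and 0.14, with no p under 0.107, and Ccr10 and Ccr3, which bind Ccl28, are among them.

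Among 41 interleukins and soluble antagonists none passed p under 0.01 and 3 were lower at p under 0.03. Il1rn encodes the antagonist that blocks the interleukin-1 receptor. It had 244, 312 and 352 in postpartum NAC, against 328, 349 and 396 in virgin NAC, and 4 postpartum arrays were below all virgin arrays. Its fold change was -0.22 (SE 0.085, exact permutation p = 0.0216). Il23a, the subunit particular to interleukin-23, had 98.5, 123 and 125 in postpartum NAC, against 124, 132 and 156 in virgin NAC. For Il23a 4 postpartum arrays were below all virgin arrays, and the fold change was -0.21 (SE 0.076, exact permutation p = 0.00649). Il17a, the T cell cytokine that interleukin-23 sustains, had 77.1, 93.1 and 114 in postpartum and 92.6, 111 and 119 in virgin NAC, with a fold change of -0.25 (SE 0.097, exact permutation p = 0.0368).

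Il17d pointed the other way. This interleukin-17 family member had 692, 760 and 814 in postpartum NAC, against 674, 704 and 732 in virgin NAC, and 4 postpartum arrays were above all virgin arrays. It averaged 758 ± 46.1 in postpartum and 701 ± 20.8 in virgin mice, a fold change of 0.11 (SE 0.048, exact permutation p = 0.0216). It passed p under 0.03 on linear intensities and not on the log2 scale.

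The classical inflammatory cytokines were dim. Il1b had 44.2, 45.9 and 53.4 in postpartum and 34.6, 39.5 and 51.6 in virgin NAC, with a fold change of 0.20 (SE 0.093, exact permutation p = 0.0584). The highest virgin array for Il1b was replicate 5, and without it the fold change was 0.27 and passed p under 0.01. Il6 averaged 28.2 ± 5.05 in postpartum and 32.7 ± 7.6 in virgin NAC (fold change -0.21, SE 0.17). Tnf averaged 123 ± 16.1 in postpartum and 123 ± 14.0 in virgin NAC, with an interval of the fold change from -0.22 to 0.22.

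Il33, Il34 and Il18, which brain cells make, were brighter, and none of them differed at either threshold. Il33, an alarmin of oligodendrocytes and astrocytes, had 340, 390 and 542 in postpartum and 360, 496 and 528 in virgin NAC, with a fold change of -0.23 (SE 0.12, exact permutation p = 0.104). The wide overlap came from postpartum replicate 4, which was high, and virgin replicate 4, which was low. Il34, which acts on the receptor Csf1r, averaged 1005 ± 92.4 in postpartum and 987 ± 74.3 in virgin NAC, with an interval from -0.14 to 0.19. Il18 averaged 543 ± 32.1 in postpartum and 554 ± 30.8 in virgin NAC, with an interval from -0.15 to 0.09. The other 32 members of the class lay between -0.33 and 0.14, and none had a p under 0.0375.

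Of 36 interleukin receptors Il1rap was the only one past either threshold. Il6st, the gp130 chain shared by interleukin-6, LIF and CNTF receptors, averaged 1251 ± 101 in postpartum and 1351 ± 168 in virgin NAC (fold change -0.11, SE 0.083). Il1rapl1, a synaptic relative of Il1rap linked to intellectual disability in humans, averaged 843 ± 83.4 in postpartum and 840 ± 64.7 in virgin NAC, with an interval of the fold change from -0.16 to 0.16. Il1r1, the binding chain that pairs with Il1rap, had 121, 136 and 159 in postpartum and 109, 124 and 145 in virgin NAC (0.14, SE 0.10, exact permutation p = 0.221). Il17ra, the common chain of interleukin-17 receptors, had 215, 350 and 418 in postpartum and 214, 302 and 319 in virgin NAC. For Il17ra 5 postpartum arrays were above all virgin arrays and replicate 4 was near the lowest virgin array, and the fold change was 0.20 (SE 0.15, exact permutation p = 0.251). Il31ra, a gp130-like receptor chain, had 125, 149 and 161 in postpartum and 122, 179 and 199 in virgin NAC (-0.24, SE 0.11, exact permutation p = 0.0693). Its 5 other virgin arrays were above every postpartum array, and the low one was replicate 6, without which the fold change was -0.34 and passed p under 0.01. Il13ra1 averaged 529 ± 65.2 in postpartum and 594 ± 80.6 in virgin NAC (-0.17, exact permutation p = 0.154). The other 29 receptors lay between -0.21 and 0.19, with no p under 0.0329.

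No TNF ligand of 10 passed either threshold, and 9 of the 10 fold changes were negative. All 10 were at or below the median intensity, where 72.3% of members and 60.1% of all probesets had negative fold changes. Tnfsf10, which encodes the death ligand TRAIL, averaged 121 ± 10.8 in postpartum and 127 ± 14.8 in virgin NAC. Tnfsf13b, which encodes the B cell survival factor BAFF, averaged 126 ± 14.2 in postpartum and 132 ± 10.1 in virgin NAC, and both ligands had fold changes of -0.07 with p over 0.38. The 7 others lay between -0.24 and 0.14.

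Of 20 TNF receptors Tnfrsf12a was higher and Tnfrsf17 was lower at p under 0.01. Tnfrsf17 encodes BCMA, the plasma cell receptor of BAFF and APRIL. It had 49.4, 52.3 and 62.4 in postpartum NAC, against 57.3, 62.9 and 82.3 in virgin NAC. Of the postpartum arrays 5 were below all virgin arrays. The mean was 53.5 ± 4.77 in postpartum and 66.2 ± 9.63 in virgin mice, and the fold change was -0.30 (SE 0.094, limma p = 0.00818, adjusted p = 0.42, exact permutation p = 0.0108). On linear intensities it passed only p under 0.03. With 1 array left out the fold change lay between -0.343 and -0.232, and p under 0.01 was lost without virgin replicate 2, 5 or 6 or any postpartum replicate but the fifth. Tnfrsf13b, which encodes TACI, the other receptor of the same ligands, had 30.3, 37.4 and 42.3 in postpartum and 38.8, 41.3 and 48.4 in virgin NAC (-0.21, SE 0.085, exact permutation p = 0.0346). Tnfrsf13c, the receptor of BAFF alone, was brighter (mean 181) and had a fold change of -0.01. Both probesets that passed a threshold here were dim, with means of 59.2 and 39.3.

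The 3 TNF receptors of highest mean intensity did not pass a threshold. Tnfrsf21, the death receptor DR6 known for roles in axon pruning and myelination, was the brightest member at 2512 ± 114 in postpartum and 2507 ± 126 in virgin NAC, and its interval ran from -0.10 to 0.11. Tnfrsf19, the receptor TROY, averaged 799 ± 65.6 in postpartum and 819 ± 41.5 in virgin NAC, with an interval from -0.17 to 0.10. Tnfrsf1a, the main receptor of TNF, had 231, 238 and 284 in postpartum and 189, 231 and 258 in virgin NAC (0.12, SE 0.081, exact permutation p = 0.18). The 14 others lay between -0.16 and 0.12, with no p under 0.0831.

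The 3 colony-stimulating factors did not point one way. Csf2, which encodes GM-CSF, had 88.8, 101 and 114 in postpartum NAC, against 109, 128 and 140 in virgin NAC. Of the postpartum arrays 3 were below all virgin arrays. Csf2 averaged 102 ± 11.9 in postpartum and 126 ± 14.3 in virgin mice, a fold change of -0.31 (SE 0.094, limma p = 0.0064, adjusted p = 0.398, exact permutation p = 0.0195). With 1 array left out it lay between -0.353 and -0.274, and p under 0.01 was lost without postpartum replicate 3, 5 or 6 or virgin replicate 2, 3 or 5. A second probeset of Csf2 (mean 83.8) had a fold change of -0.05 (exact permutation p = 0.561). Csf3, which encodes G-CSF, had 86.4, 111 and 127 in postpartum and 120, 127 and 132 in virgin NAC (-0.23, SE 0.092, exact permutation p = 0.0195). Csf1, which shares the microglial receptor Csf1r with Il34, had 365, 385 and 419 in postpartum and 331, 344 and 411 in virgin NAC. The fold change of Csf1 was 0.10 (SE 0.061, exact permutation p = 0.0996). The antisense RNA Il1bos, the only noncoding member, had a fold change of -0.03.

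**Figure D4:**
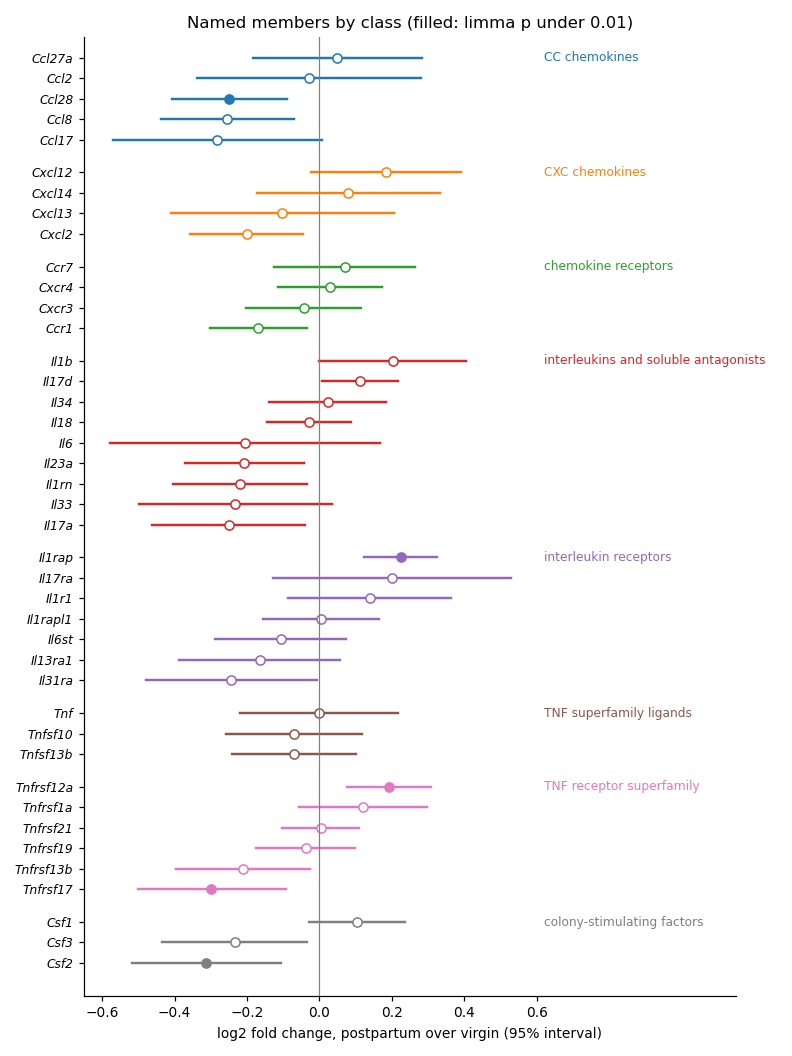
Log2 fold change, postpartum over virgin, with its 95% interval (limma) for 41 members grouped by class, filled where p was under 0.01. Il1rap and Tnfrsf12a lie to the right of 0, and Ccl28, Tnfrsf17 and Csf2 to the left, and most other intervals include 0.

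The members were also counted by the systems in which ligands and receptors meet, put together with the values known. Of 19 genes of the interleukin-1 family 1 was higher at p under 0.01 (Il1rap) and Il1rn was lower at p under 0.03. Of 15 genes of the interleukin-17 and interleukin-23 system none passed p under 0.01, and Il17a and Il23a were lower at p under 0.03. Of 4 genes of the BAFF system (BAFF and the 3 receptors it binds, with no APRIL gene among the members), 1 was lower at p under 0.01 and 2 were at p under 0.03. All 4 fold changes were negative, as were 65.4% of those of all members. Of 8 genes that signal through gp130 or its relatives none passed p under 0.03. Beside these counts, 2.3% of all probesets passed p under 0.01 and 5.73% passed p under 0.03, in either direction. Whether any of these systems, or any class above, differs from those shares was not tested. The systems hold few genes and were put together with the values known.

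The count of lower members changed when single arrays were left out. Virgin replicate 5 was the highest of all 12 arrays for 7 of the 11 members that were lower at p under 0.03. These 11 were picked for higher virgin values, so a virgin array tends to be their highest, and the 7 carries little weight. Of the 159 members virgin replicate 5 was highest for 24 and virgin replicate 2 for 31, while postpartum replicate 4 was lowest for 29. The median deviation of the members from their own means over the virgin arrays was 0.065 (log2) in virgin replicate 5 and 0.061 in virgin replicate 2. All probesets, measured the same way, were at 0.018 and -0.007. Without virgin replicate 2 the median fold change of the members was -0.022. Without virgin replicate 5 the members past p under 0.01 were 3, all higher (Il1rap, Tnfrsf12a and Il1b), and those past p under 0.03 were 7, 3 higher and 4 lower. Over all probesets the 440 lower at p under 0.01 became 321 without this array, and the 511 higher became 392.

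Genes of the same pathways outside the naming rule were counted in lists. Of 13 other chemokine and decoy genes, such as Cx3cl1 and Cx3cr1, none passed p under 0.01 or 0.03, and their median fold change was -0.023, beside -0.012 over all probesets. Of 23 other cytokine ligands and receptors (median 0.001) 1 was higher at p under 0.01 (4.35%, beside 2.3% of all probesets), Cntfr, the binding chain that brings ciliary neurotrophic factor to gp130. Cntfr averaged 1800 ± 61.7 in postpartum and 1639 ± 62.6 in virgin NAC, with every postpartum array above every virgin array (0.14, SE 0.042, limma p = 0.00688, exact permutation p = 0.00216). Of 14 other TNF superfamily genes (median -0.051) none passed p under 0.01, and 1 (7.14%, beside 5.73%), the dim Eda2r, was lower at p under 0.03 (-0.22, SE 0.079).

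In 3 lists of genes downstream of the receptors no gene passed p under 0.01. The shares past p under 0.03 rest on 1 to 5 genes per list, and whether they differ from the background was not tested. Beside them, p under 0.03 was passed by 5.73% of all probesets, 6.56% of genes named by a single symbol and 7.19% of brighter probesets. Of 32 genes of NF-kB, TRAF and receptor adaptor proteins (median -0.014) 2 were higher and 3 lower at p under 0.03, which is 15.6%. Among them, Irak3, a brake on interleukin-1 and Toll-like receptor signaling, had a fold change of -0.45 (SE 0.15, exact permutation p = 0.0173). Its probeset had a mean of 147.7, below the yardstick of 158. The fold change of Traf4 was 0.18 (SE 0.064, exact permutation p = 0.0108). Of 9 JAK and STAT genes (median 0.030) 1 was higher at p under 0.03 (11.1%), Jak2 (0.16, SE 0.061). Of 13 genes that cytokines induce (median 0.026) 1 was higher and 2 were lower at p under 0.03 (23.1%), and these were Serpina3n, an astrocyte acute phase gene (0.28, SE 0.10), Vcam1 (-0.21, SE 0.082) and Irf1 (-0.15, SE 0.059).

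Markers of the cells that make or read these signals are given beside the members, and their part in the members' values was not tested. The summed intensity of 15 microglial markers was 6200 to 7749 in postpartum and 6163 to 6940 in virgin NAC. Their median fold change was -0.002, with 8 of 15 negative. Of these markers Mpeg1 was lower at p under 0.01 (-0.56, SE 0.18). At p under 0.03 C1qb was higher (0.40, SE 0.14) and P2ry12 was lower as well (-0.23, SE 0.080). The 6 markers of border macrophages summed to 918 to 1110 in postpartum and 949 to 1143 in virgin NAC, and the 11 measured leukocyte markers, of which Ccr7 is also a member, to 2052 to 2400 in postpartum and 2011 to 2316 in virgin NAC. None of these 17 markers passed p under 0.01. The median fold change was -0.079 over the border macrophage markers, with 4 of 6 negative, and -0.013 over the leukocyte markers, with 7 of 11 negative. The 7 markers of meninges and fibroblasts, cells that also make Cxcl12, all had negative fold changes (median -0.38), summed to 1821 to 2732 in postpartum and 1886 to 4386 in virgin NAC, and none passed p under 0.01. The 9 endothelial markers summed to 3246 to 3943 in postpartum and 3343 to 3844 in virgin NAC, and Ly6c1, whose probeset was dim (mean 46.1), was higher at p under 0.01 (1.01, SE 0.26). The median fold change of the list was 0.034, with 3 of 9 negative. The 8 astrocyte markers summed to 15650 to 17600 in postpartum and 14900 to 16660 in virgin NAC with none past p under 0.01. The 7 oligodendrocyte markers summed to 7405 to 10010 in postpartum and 7581 to 9687 in virgin NAC, with Opalin lower at p under 0.01 (-0.47, SE 0.15). The median fold change of this list was -0.1, with 5 of 7 negative and 2 positive. The 4 choroid plexus markers summed to 844 to 1172 in postpartum and 991 to 1613 in virgin NAC, and none passed p under 0.01. Outside microglia, further markers passed p under 0.03. Mrc1 of border macrophages (-0.33, SE 0.13) and Slc6a13 of meninges (-0.56, SE 0.185) were lower. Ly6c2 of leukocytes (0.31, SE 0.12), Flt1 of endothelium (0.16, SE 0.055) and Aldoc of astrocytes (0.16, SE 0.053) were higher. On linear intensities Flt1 and Aldoc passed p under 0.01, and the paper lists Flt1 at that threshold. The share past p under 0.03 ran from 0% (choroid plexus) to 37.5% (striatal projection neurons) over these short lists, beside 5.73% of all probesets. No marker was at 0 in any array.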

How the data were processed

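RNA of NAC punches from 6 postpartum and 6 virgin mice was measured on 12 arrays, grouped by the submitters' labels. The authors summarized and normalized the probes with PLIER (the submitters' processing notes name Affymetrix Power Tools 1.12.0, the paper names Expression Console) and deposited 1 linear intensity per probeset and array. The scanned arrays were not used here. Precision is limited by the number of arrays.

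Intensities were raised to a floor of 1, taken as log2 and fitted with limma 3.58.1 in R 4.3.3 (lmFit and eBayes without trend) on all 41345 probesets, of which 23521 have 1 gene symbol, 1820 several and 16004 none. No member had an intensity under 1. All 159 members were matched to RefSeq by gene ID, and the annotation's symbols are kept. Exact permutation tests were two-sided and used every way to divide the 12 arrays evenly. The fit was tested on simulated data. The replicates are separate mice.

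The text names members with limma p under 0.03 on log2 or linear values, the 3 of each class with the highest mean intensity, the 5 largest changes in each direction among members above the median, and textbook cytokines and receptors. In other lists up to 3 genes of smallest p were named. The members, classes and lists were chosen with earlier results of these data known. Alternatives were quantile normalization, centred arrays, linear intensities, log2 of the intensity plus 16, brighter probesets only, a variance trend, each array left out, the replicate number as a block, and the mean of a gene's probesets.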

Additional observations from a re-analysis of the deposited data

Results flagged for a closer look

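Each of the 41 named members was examined in both groups for a single array that stood far from the other 5 (the gap to the nearest array as a share of the group's range, against a critical value of 0.625). Of 82 such groups 10 held one, where chance gives about 1 in 20, or 4.1. In 4 of the 10 the array was postpartum replicate 4. It was the lowest for Il34 at 831.2 (nearest 982), for Il6 at 18.63 (nearest 26.7) and for Il17ra at 215.1 (nearest 328), and the highest for Il1b at 53.35 (nearest 47.1). Without it the fold changes were 0.077 for Il34, -0.09 for Il6, 0.324 for Il17ra and 0.164 for Il1b.

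Virgin replicate 3 was the lowest for Il17ra at 213.5 (nearest 292), and without it the fold change was 0.113. The same array was the highest for Tnfsf13b at 152.1 (nearest 132), and without it the fold change was -0.03. Cxcl2 was highest in virgin replicate 5 at 228.5 (nearest 199), and its fold change was -0.158 without this array, against -0.201 with it. Il33 was lowest in virgin replicate 4 at 360.5 (nearest 476), and without it the fold change was -0.313. Il31ra was lowest in virgin replicate 6 at 122.4 (nearest 176), and without it the fold change was -0.34. Tnfsf10 was lowest in postpartum replicate 2 at 100.1 (nearest 121), and without it the fold change was -0.017. What sets these arrays apart was not tested.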

How the results depend on the processing

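The fold changes of Il1rap and Tnfrsf12a passed p under 0.01 in all alternatives run, except the mean of a gene's probesets for Il1rap. Ccl28 lost the threshold with the replicate block and with any 1 of 5 arrays left out, Csf2 with 4 settings and 6 arrays, and Tnfrsf17 with 5 settings and 8 arrays. The 5 members past p under 0.01 became 3 (2 higher, 1 lower) with quantile normalization, with centred arrays and among brighter probesets only. Leaving out arrays gave 3 (without postpartum replicate 1, virgin replicate 2 or virgin replicate 5) to 8 (without postpartum replicate 6). The 13 members past p under 0.03 became 6 with quantile normalization and 5 among brighter probesets only, of which 58 members were fitted, and 7 (without virgin replicate 5) to 15 (without virgin replicate 4) with an array left out. With the replicate number as a block, 2 members passed p under 0.01, both higher. The deviations of same-numbered arrays correlated at 0.103 and 0.202 for replicates 2 and 3, each the best match of its array, and at -0.208 to 0.026 for the other 4. Brains of both groups were collected on the same days, but the labels do not tie a day to a number, so that the numbers are not taken as pairs. Over all probesets the 511 higher and 440 lower at p under 0.01 became 856 and 207 with centred arrays and 797 and 465 on linear intensities. The median fold change of the members was -0.058 to -0.01 over the settings, with the smallest size for centred arrays. Of 805 comparisons of single genes with an alternative, 30 lost p under 0.01, 12 gained it and none reversed, where a change of sign in a gene that passed under neither setting was not counted. The 103 of 159 members not above the yardstick of 158 limit what these arrays can show.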
